A study of Mus musculus with 2 samples.

Results

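Chemokines are small secreted or membrane-bound proteins that draw leukocytes and other cells towards their source. The 10 chemokine genes described here are *Cxcl1*, *Cxcl2*, *Cxcl5*, *Ccl2*, *Ccl7*, *Cxcl10*, *Ccl5*, *Cxcl12*, *Cxcl16* and *Cx3cl1*. They are among 38 genes of the mouse annotation with a chemokine symbol, that is Ccl, Cxcl, Xcl or Cx3cl and a number. They were selected with their tag counts and ratios in these 2 libraries known, as chemokines that stromal cells make, so their own values are a description and carry no test. Of the 10, 9 had a listed tag, among 14450 genes with one, and *Cxcl2* had none in either library.

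The study compared 2 mouse cell lines by digital gene expression (DGE) tag profiling, with 1 library per line. The GC-1spg line goes back to type B spermatogonia, taken at an age of 10 days and carrying the plasmid pSV3-neo. For GC-2spd, or GC-2spd (ts), the source was spermatocytes, at an age of 6 weeks, which carry SV40 large T antigen, and its label places it at a premeiotic stage without further potential to differentiate. Both are transformed lines that grew in DMEM with sodium bicarbonate at 1.5 g/L and 10% FBS, with no other treatment in the labels, and their RNA had an average RIN of 8.9. The libraries held 5072149 and 4726808 clean tags, so that 1 copy of a tag stood for 0.197 TPM (tags per 1000000 clean tags) in GC-1spg, against 0.212 TPM in GC-2spd. With 1 library per line no difference has a replicate check in these counts, and every comparison is between these libraries and not between conditions. The intervals hold counting error alone, with PCR copies of 1 molecule counted as separate tags. The study also measured *Cxcl1* and *Ccl5* by qPCR and reported a high correlation of tag and qPCR fold changes over its measured genes. Those qPCR values are not used here. A lower share of cells that make a transcript and less of the transcript per cell cannot be told apart in such bulk RNA.

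Inflammatory chemokine genes are largely silent in resting stromal cells and are switched on by transcription factors. NF-κB, released by signals such as interleukin-1, tumour necrosis factor and bacterial products, drives *Cxcl1*, *Cxcl2*, *Cxcl5*, *Ccl2* and *Ccl7*, whose products attract neutrophils and monocytes. Interferons act through STAT and IRF factors on *Cxcl10*, and *Ccl5* answers to IRF factors as well as NF-κB, and both products attract T cells. *Cxcl12* is a homeostatic chemokine that stromal cells make without inflammation and that holds stem cells in their niches. *Cxcl16* and *Cx3cl1* are made as membrane-anchored proteins and can be shed by proteases.

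In DGE, *Nla*III cuts cDNA at CATG and *Mme*I releases a 21-base tag, so each tag marks 1 place in a transcript. The tags that carried most copies of each chemokine are shown 5′ to 3′ because most of the copies counted below fell on them, with the CATG site in capitals.

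Cxcl1: CATGtgtgggaggctgtgttt
Cxcl5: CATGtttgaatatggattgct
Ccl2: CATGaatactaaaatttctta
Ccl7: CATGtcactttaacgttgtgt
Cxcl10: CATGcccaggctgctccccac
Ccl5: CATGaagatctctgcagctgc
Cxcl12, exon 4: CATGggtgattatctcagtgg
Cxcl12, exon 3: CATGctgtaaacctcctaccg
Cxcl12, exon 3: CATGaagccacagtggggatt
Cxcl16: CATGctgtcttgagacaaagt
Cx3cl1: CATGctccacagaaccagttg

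On GRCm38 the *Cxcl1* tag lies at chr5:90892874-90892894 (+), the *Cxcl5* tag at chr5:90761446-90761466 (+), the *Ccl2* tag at chr11:82037250-82037270 (+) and the *Ccl7* tag at chr11:82047320-82047340 (+). The *Cxcl10* tag lies at chr5:92347033-92347053 (−), the *Cxcl16* tag at chr11:70455274-70455294 (−) and the *Cx3cl1* tag at chr8:94782161-94782181 (+). All of these are in 3′ UTRs, in the last exon of a transcript. The *Ccl5* tag at chr11:83530442-83530462 (−) is different, because its CATG covers the start codon in exon 1. It is the CATG site nearest to the 3′ end in an annotated *Ccl5* transcript, and no other *Ccl5* tag was listed.

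The group named NF-κB driven was lower in GC-2spd. Its members together had 3936 copies in GC-1spg against 728 in GC-2spd, or 776 against 154 TPM, a log2 ratio of −2.33 (95% interval −2.45 to −2.22). The group was not uniform: *Cxcl1* and *Cxcl5* were scarce in GC-2spd, *Ccl2* was lower but still abundant, and *Ccl7* had about the same level in both libraries.

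*Cxcl1*, a neutrophil attractant that binds Cxcr2, had 1112 copies in GC-1spg against 32 in GC-2spd, which is 219 TPM (95% interval 207 to 233) against 6.77 TPM (4.63 to 9.56). Its log2 ratio was −5.02 (−5.57 to −4.51), or 32.4-fold lower in GC-2spd. The difference was present at separate places of the transcript. The 3′ UTR tag had 997 and 27 copies, and the tag CATGgctgggattcacctcaa in the coding sequence of exon 2 had 100 and 5.

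*Cxcl5*, another Cxcr2 ligand, had 658 copies in GC-1spg against 3 in GC-2spd, or 130 against 0.635 TPM. The log2 ratio was −7.68, with a wide interval of −9.96 to −6.12 because it rests on 3 copies in GC-2spd. *Cxcl2*, a close relative of *Cxcl1*, was not listed in either library although 8 of its 10 possible tags occur in no other gene. The 3 genes lie within 1 cluster on chromosome 5, where *Cxcl3* was not listed either and *Cxcl15* had 6 and 7 copies.

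*Ccl2*, the main monocyte attractant, was the most abundant of the 10 chemokines in GC-1spg with 1844 copies and had 399 copies in GC-2spd. These counts are 364 TPM (347 to 381) and 84.4 TPM (76.3 to 93.1), a log2 ratio of −2.11 (−2.27 to −1.95), or 4.31-fold lower. Its tag in the coding sequence of exon 1, CATGcttctgggcctgctgtt, had 96 and 14 copies, in the same direction as the 3′ UTR tag with 1737 and 385.

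*Ccl7*, which shares the monocyte receptor Ccr2 with *Ccl2*, had 322 and 294 copies, or 63.5 and 62.2 TPM, and its log2 ratio of −0.030 had an interval of −0.26 to 0.20. *Ccl2* and *Ccl7* are neighbours on chromosome 11, starting at 82035571 and 82045712. As a description of these libraries, 5.73 copies of *Ccl2* were counted per copy of *Ccl7* in GC-1spg and 1.36 in GC-2spd.

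**Figure D1:**
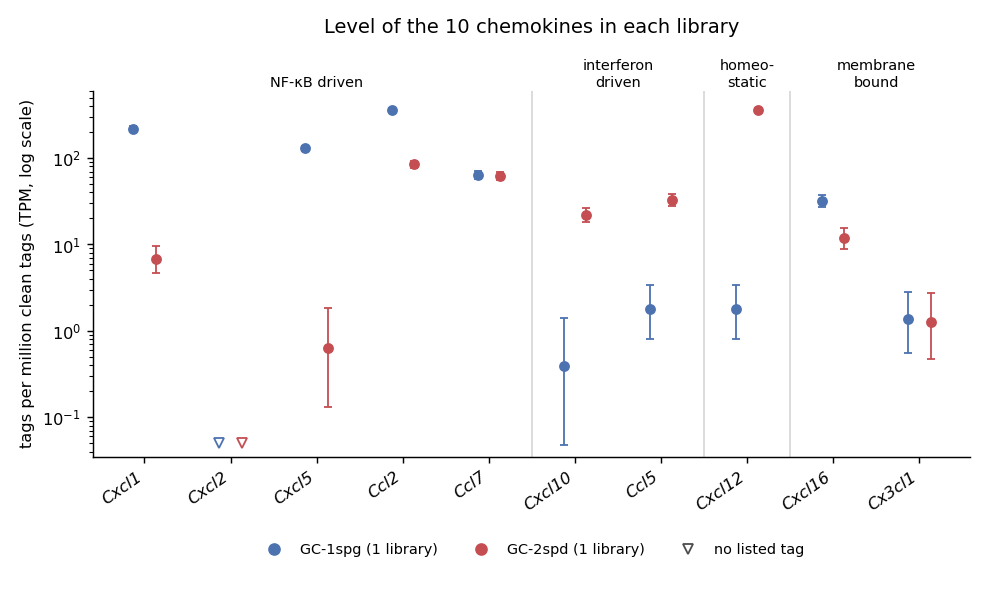
Level of each of the 10 chemokines as TPM on a log scale, with 1 point per library (blue GC-1spg, red GC-2spd) and exact 95% Poisson intervals of counting error. Triangles at the bottom mark a gene with no listed tag and are not at a measured height. *Cxcl1*, *Cxcl5* and *Ccl2* sit higher in GC-1spg, *Cxcl10*, *Ccl5* and *Cxcl12* sit higher in GC-2spd, and the points of *Ccl7* and *Cx3cl1* overlap.

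The pair named interferon driven, *Cxcl10* and *Ccl5*, was higher in GC-2spd and scarce in GC-1spg, with 258 copies against 11 in all. The name is not exclusive, because *Ccl5* also answers to NF-κB and the *Cxcl10* promoter also holds a κB match. The groups were made with the values known, and what drives each gene in these lines was not tested. *Cxcl10*, a ligand of Cxcr3 on T cells, had 2 copies in GC-1spg against 104 in GC-2spd, or 0.394 TPM (0.0478 to 1.42) against 22.0 TPM (18.0 to 26.7). The log2 ratio was 5.80 (3.91 to 8.87), wide because of the 2 copies. The tag nearest to the 3′ end had no listed copy in GC-1spg against 91 in GC-2spd, and the 2 copies of GC-1spg belonged to another tag of the same 3′ UTR, CATGgtcctgagacaaaagta, which had 6 in GC-2spd.

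*Ccl5*, an attractant of T cells and monocytes, had 9 and 154 copies, or 1.77 TPM (0.811 to 3.37) and 32.6 TPM (27.6 to 38.2). Its log2 ratio was 4.20 (3.24 to 5.35), or 18.4-fold higher in GC-2spd. In both libraries the pair stayed under *Ccl2* in TPM, a scale on which genes can be set side by side here because in principle each transcript gives 1 tag whatever its length.

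Promoter sequence was shown for these inducible genes because their 2 regulators bind different letters. RefSeq promoters on GRCm38.p6, running from 250 bases before the start to 50 after it, were matched for 5 of the 10 genes, *Cxcl1*, *Cxcl2*, *Cxcl10*, *Cxcl12* and *Cx3cl1*. The unmatched genes were *Cxcl5*, *Ccl2*, *Ccl7*, *Ccl5* and *Cxcl16*. Both strands were searched for GGANTTTCC, the end of a κB site, and for GAAANNGAA, an interferon-stimulated response element. GGANTTTCC occurs in 412 of 32851 mouse promoters of this length (1.25%) and GAAANNGAA in 2812 (8.56%). The matches are in capitals, on the strand of the gene.

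Cxcl1, κB: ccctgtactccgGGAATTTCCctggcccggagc
Cxcl2, κB: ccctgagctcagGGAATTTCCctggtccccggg
Cxcl10, κB: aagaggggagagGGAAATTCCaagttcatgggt
Cxcl10, interferon-stimulated response element: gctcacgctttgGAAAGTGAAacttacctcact

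The *Cxcl1* match began 70 bases before the start, in the piece chr5:90891163-90891195 (+), and the *Cxcl2* match 96 bases before the start, in chr5:90903791-90903823 (+). Around the same 9 letters, *Cxcl1* and *Cxcl2* had very different counts in GC-1spg, 1112 copies and no listed tag. *Cxcl10* held both motifs without overlap, the κB letters on the opposite strand in chr5:92349027-92349059 (−), from 158 bases before the start, and the interferon element in chr5:92349082-92349114 (−), from 213 bases before it. Neither motif was found in the windows of *Cxcl12* and *Cx3cl1*. A match of letters is a description of the sequence, and binding was not measured.

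*Cxcl12*, the homeostatic ligand of Cxcr4 and Ackr3, had the largest difference towards GC-2spd among the 10. It had 9 copies in GC-1spg against 1698 in GC-2spd, or 1.77 TPM (0.811 to 3.37) against 359 TPM (342 to 377). The log2 ratio was 7.66 (6.73 to 8.79), 202-fold higher, and the level in GC-2spd was close to that of *Ccl2* in GC-1spg, at 364 TPM. The 1698 copies fell on 23 distinct tags, against 2 distinct tags in GC-1spg.

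The tags of *Cxcl12* separated transcripts with different ends. The annotation has 4 *Cxcl12* transcripts, of which 1 coding and 1 non-coding transcript end in exon 3 and 2 coding transcripts end in exon 4, much farther downstream. In GC-2spd, 1094 copies (64.4%, exact 95% interval 62.1 to 66.7) belonged only to transcripts ending in exon 4, 584 copies (34.4%, 32.1 to 36.7) only to those ending in exon 3, and 20 copies to all of them. The exon 4 tag at chr6:117180869-117180889 (+) had 963 copies, and the exon 3 tags at chr6:117175005-117175025 (+) and chr6:117174611-117174631 (+) had 286 and 255. In GC-1spg the 9 copies divided into 5 on the exon 4 tag and 4 on the first of the exon 3 tags, too few to compare the use of the ends between the libraries.

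**Figure D2:**
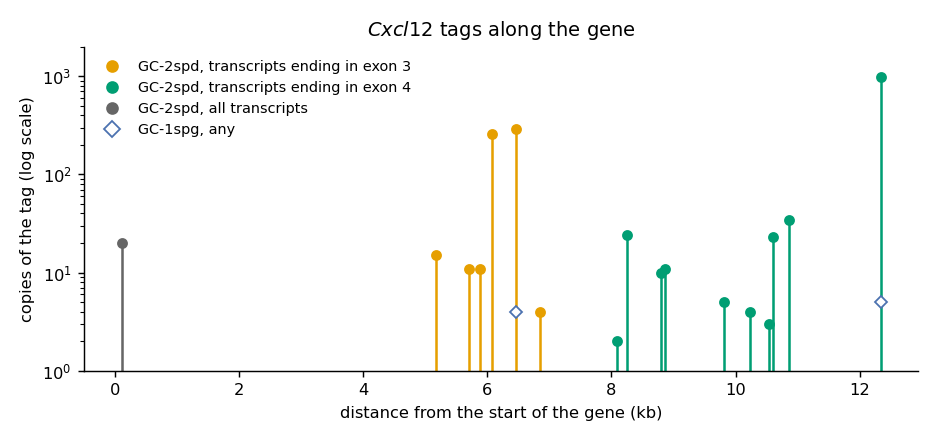
Copies of the *Cxcl12* tags (log scale) by distance from the start of the gene in kb, with round points for GC-2spd coloured by the transcripts that hold the tag and open diamonds for GC-1spg. In GC-2spd the copies gather at the 3′ ends of both kinds of transcript, and GC-1spg has 5 and 4 copies at these ends.

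Of the membrane-bound chemokines, *Cxcl16*, the ligand of Cxcr6 and a scavenger receptor for oxidized lipoprotein, had 162 copies in GC-1spg against 56 in GC-2spd. This is 31.9 TPM (27.2 to 37.3) against 11.8 TPM (8.95 to 15.4), a log2 ratio of −1.43 (−1.90 to −0.98). Its tag CATGctgtcttgagacaaagt, with 141 and 48 copies, was lower in GC-2spd. Its tag CATGtgtaaagttctaggttc had 17 and 8, and the log2 ratio of −0.99 (−2.41 to 0.30) does not fix a direction. *Cx3cl1*, or fractalkine, the ligand of Cx3cr1, was near the detection limit with 7 and 6 copies, and its log2 ratio of −0.12 (−1.97 to 1.68) does not fix a direction.

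With the study's thresholds, a false discovery rate (FDR, Benjamini-Hochberg) up to 0.001 in the Audic-Claverie test, two-sided, and a log2 ratio of 1 or more in size, 3 of the 10 were called higher in GC-2spd, 4 were called lower, 2 were not called and 1 was not listed. Over all 14450 genes, 11.7% were called higher and 7.84% lower, 19.5% in all. These were 1684 genes higher and 1133 lower, but 1292 higher and 1443 lower after TMM scaling, so the direction with more calls over all genes turned with the scaling. Because these genes were selected on the same values, nothing is read from the difference between those shares. The calls higher were *Cxcl10*, *Ccl5* and *Cxcl12*, and the calls lower were *Cxcl1*, *Cxcl5*, *Ccl2* and *Cxcl16*. When a biological coefficient of variation (BCV) of 0.4 between cultures was assumed in place of counting error alone, *Ccl2*, *Ccl5* and *Cxcl16* were no longer called, and *Cxcl16* was already lost at a BCV of 0.2.

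**Figure D3:**
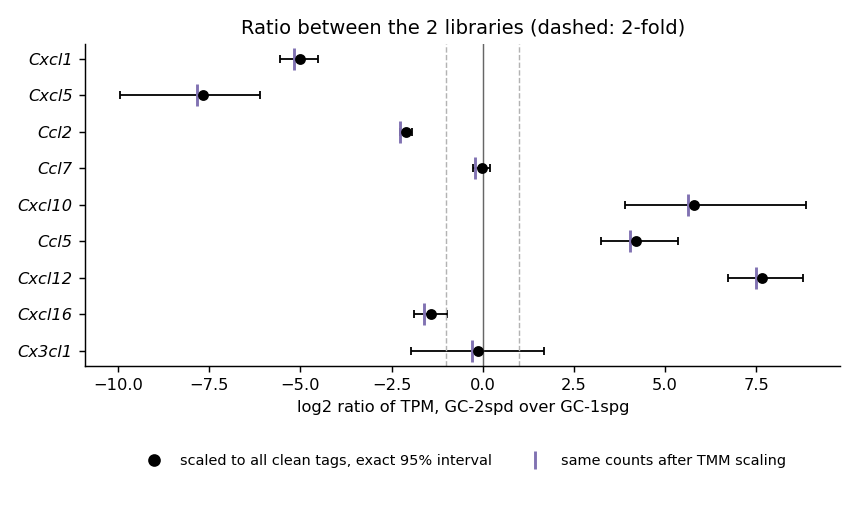
Log2 ratio of TPM, GC-2spd over GC-1spg, for the 9 chemokines with a listed tag. Points are scaled to all clean tags with exact 95% intervals of counting error, and short purple bars show the ratio after TMM scaling, which moves every gene by −0.17. The ratios run from −7.68 for *Cxcl5* to 7.66 for *Cxcl12*, with *Ccl7* and *Cx3cl1* near 0.

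The total of the 10 chemokines was 4125 copies in GC-1spg against 2746 in GC-2spd, or 813 against 581 TPM, a log2 ratio of −0.49 (−0.56 to −0.42). In GC-1spg the NF-κB driven chemokines made up 95.4% of these copies, led by *Ccl2* with 44.7% (exact 95% interval 43.2 to 46.2) and *Cxcl1* with 27.0% (25.6 to 28.3). In GC-2spd their share was 26.5%, and *Cxcl12* alone held 61.8% (60.0 to 63.7), against 0.218% (0.0998 to 0.414) in GC-1spg. The interferon driven pair held 0.267% in GC-1spg and 9.40% in GC-2spd, and the membrane-bound pair 4.10% and 2.26%. *Ccl7* held 7.81% (7.01 to 8.67) and 10.7% (9.57 to 11.9), a larger share of a smaller total.

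**Figure D4:**
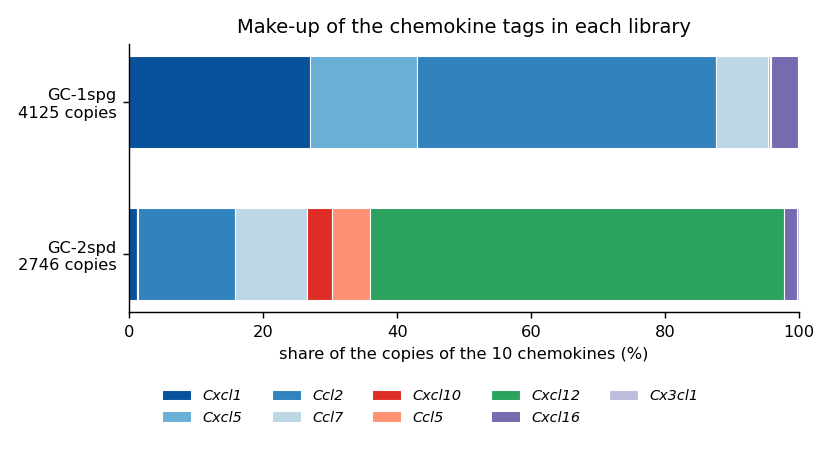
Share of each chemokine in the copies of the 10 chemokines, in percent, with 1 bar per library. Blue shades (*Cxcl1*, *Cxcl5*, *Ccl2*, *Ccl7*) fill 95.4% of the GC-1spg bar, and *Cxcl12* in green fills 61.8% of the GC-2spd bar.

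Most of the other genes with a chemokine symbol were not listed in either library, and chemokines under other kinds of symbol were not looked up. Of the 28 other chemokine genes 8 had a listed tag, with 147 copies in GC-1spg against 133 in GC-2spd in all. Of the 20 others, 2 had no possible tag of their own. Among the 8 listed genes 1 was called higher and 2 lower. These are 12.5% and 25%, beside 11.7% and 7.84% of all genes. *Ccl20*, an NF-κB target that attracts Ccr6-bearing lymphocytes, was called lower, with 28 copies in GC-1spg against no listed tag in GC-2spd, at least 5.50-fold lower. *Ccl9* was also called lower with 29 and 5 copies, a log2 ratio of −2.43 (−4.16 to −1.05). This call was lost when only the site closest to the 3′ end was counted.

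*Cxcl14*, a homeostatic chemokine, was called higher with no listed tag in GC-1spg and 13 copies in GC-2spd, at least 2.22-fold higher, and this call was lost under TMM scaling and with only the site closest to the 3′ end. The other 5 were not called. *Ccl25*, known from thymus and gut, had 74 and 77 copies, or 14.6 and 16.3 TPM. *Ccl27a* had 5 and 23 copies, *Ccl8* 5 and 4, *Cxcl15* 6 and 7, and *Ccl4* 0 and 4. The interferon-induced neighbours of *Cxcl10*, *Cxcl9* and *Cxcl11*, were not listed in either library.

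Receptors for these ligands were few. Of 23 chemokine receptor genes 8 had a listed tag, none was called higher and 2 were called lower in GC-2spd, where 11.7% and 7.84% of all genes were, and their copies summed to 200 in GC-1spg against 19 in GC-2spd. *Cxcr4*, the signalling receptor of Cxcl12, had 22 copies in GC-1spg against none listed in GC-2spd, at least 4.32-fold lower, which is opposite in direction to its ligand. All 22 copies were of 1 tag that matched *Cxcr4* with 1 mismatch, so exact matching left the gene unlisted in both libraries. *Ackr3*, which binds and removes Cxcl12, had 9 and 7 copies.

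*Ccr7*, the receptor that guides cells to lymph nodes, had most of the receptor copies, 158 in GC-1spg against none listed in GC-2spd, at least 31.0-fold lower. All 158 copies were of 1 tag, so no second place in the transcript was seen. The scavenger receptor *Ackr2*, which takes up inflammatory CC chemokines such as Ccl2 and Ccl5, had 7 copies in GC-1spg against none listed in GC-2spd. *Ccr9*, the receptor of Ccl25, had 0 and 9, *Ccrl2* 0 and 3, and *Ccr1* and *Cx3cr1* 2 and 0 each, none of them called. Cxcr1, Cxcr2, Cxcr3, Cxcr6 and Ccr2, signalling receptors of several of the 10 ligands, had no listed tag.

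Of the other NF-κB targets of stromal cells, more were called lower in GC-2spd than higher. Of 20 such genes 19 were listed, 1 was called higher and 8 lower, with 10 not called. These are 5.26% and 42.1% of the listed genes, beside 11.7% and 7.84% of all genes. Their median log2 ratio was −1.98 with 0.5 tags added to both counts, beside 0.13 over all genes with a tag. It was −0.41 when genes missing from 1 library were put at their bound, beside 0 over all genes. This list was chosen with earlier results of these data known, so it is not independent evidence. *Saa3*, an acute phase protein, had 3446 copies in GC-1spg against none listed in GC-2spd, at least 126-fold lower. *Sod2*, the mitochondrial superoxide dismutase, had 1797 and 679, and the complement gene *C3* 556 and 2.

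The transcription factors *Cebpb* (637 and 165 copies) and *Cebpd* (370 and 57), which act together with NF-κB on such promoters, and the leukocyte adhesion molecule *Vcam1* (129 and 30) were also called lower. *Csf1*, the macrophage growth factor, was called higher, with 297 and 1003 copies, a log2 ratio of 1.86 (1.67 to 2.05). *Ptgs2*, the inducible cyclooxygenase, had 295 and 222 copies and was not called, as were *Birc3* with 33 and 60, *Mmp13* with 23 and 10 and *Mmp9* with 9 and 0.

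The NF-κB pathway itself showed no common direction. Of its 27 genes 25 were listed, 4 were called higher and 4 lower. This is 16% of the listed genes each way, beside 11.7% and 7.84% of all genes. The median log2 ratio was −0.27 with 0.5 tags added, beside 0.13 over all genes with a tag. It was −0.0079 when genes missing from 1 library were put at their bound, beside 0 over all genes. The subunits *Rela*, with 621 and 416 copies, and *Nfkb1*, with 368 and 429, were not called, at log2 ratios of −0.48 and 0.32. The inhibitor *Nfkbia*, with 607 and 298 copies, was not called either. Its log2 ratio of −0.92 (−1.13 to −0.72) lay just inside the 2-fold threshold. The inhibitor *Nfkbie* (207 and 33), the coregulator *Bcl3* (341 and 50), the tumour necrosis factor receptor *Tnfrsf1b* (710 and 172) and the endotoxin receptor *Tlr4* (86 and 27) were called lower.

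Called higher were the adaptor *Myd88* (67 and 483 copies), the interleukin-17 receptor *Il17ra* (52 and 203), the subunit *Rel* (22 and 63) and the RNA sensor *Tlr3* (5 and 25). *Tnfrsf1a*, the main tumour necrosis factor receptor of stromal cells, had 246 and 228 and was not called. The cytokines that start the pathway were absent or nearly so. *Il1b* and *Tnf* were not listed, and *Il1a* had 2 and 0. Over the NF-κB targets and the pathway together, 12 genes were called lower and 5 higher. These are 27.3% and 11.4% of the listed genes, beside 7.84% and 11.7% of all genes. At an assumed BCV of 0.4 the counts were 2 lower and 0 higher.

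Most interferon targets were called higher in GC-2spd, in the direction of *Cxcl10* and *Ccl5*. Of 25 genes, which include *Cxcl9* and *Cxcl11*, 23 were listed, 16 were called higher, none was called lower and 7 were not called. This is 69.6% of the listed genes called higher, beside 11.7% of all genes. Their median log2 ratio was 3.27, or 2.23 with genes missing from GC-1spg at their bound, beside 0.13 and 0 over all genes with a tag. This set excludes *Cxcl10* and *Ccl5*, but a higher level of interferon targets in GC-2spd was known when it was written, so it is not independent evidence.

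*Bst2*, a tether of budding virions, had 36 and 448 copies. *Rtp4*, an interferon-induced chaperone, had 17 and 379, and *Ifit1*, which binds foreign RNA, had 6 and 280, a log2 ratio of 5.65 (4.51 to 7.10). The ubiquitin-like modifier *Isg15* had 11 and 236, *Rsad2* had none listed in GC-1spg and 150 in GC-2spd, at least 10.2-fold higher, and *Oasl2* had 4 and 135. Exceptions that were not called were *Ifi35* with 196 and 276 copies, *Gbp2* with 216 and 158, *Zbp1* with 10 and 11 and *Ifitm3* with 0 and 11.

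Of 18 interferon receptors, sensors and factors 16 were listed, 5 were called higher and 1 lower. These are 31.2% and 6.25% of the listed genes, beside 11.7% and 7.84% of all genes. Their median log2 ratio was 0.38, beside 0.13 over all genes with a tag. *Irf7*, the factor that amplifies interferon genes, had 16 and 316 copies, a log2 ratio of 4.41 (3.68 to 5.23), and *Irf9*, *Stat2*, *Jak1* and the RNA sensor *Ifih1* were also called higher. *Irf1* was called lower, with 372 and 141 copies. *Ifngr1*, a chain of the interferon-gamma receptor, with 252 and 460 copies, lay just inside the 2-fold threshold and was not called. The interferon genes *Ifnb1* and *Ifng* were not listed in either library. Over the interferon lists together 21 genes were called higher and 1 lower. These are 53.8% and 2.56% of the listed genes, beside 11.7% and 7.84% of all genes. When a BCV of 0.4 was assumed, 8 were called higher.

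**Figure D5:**
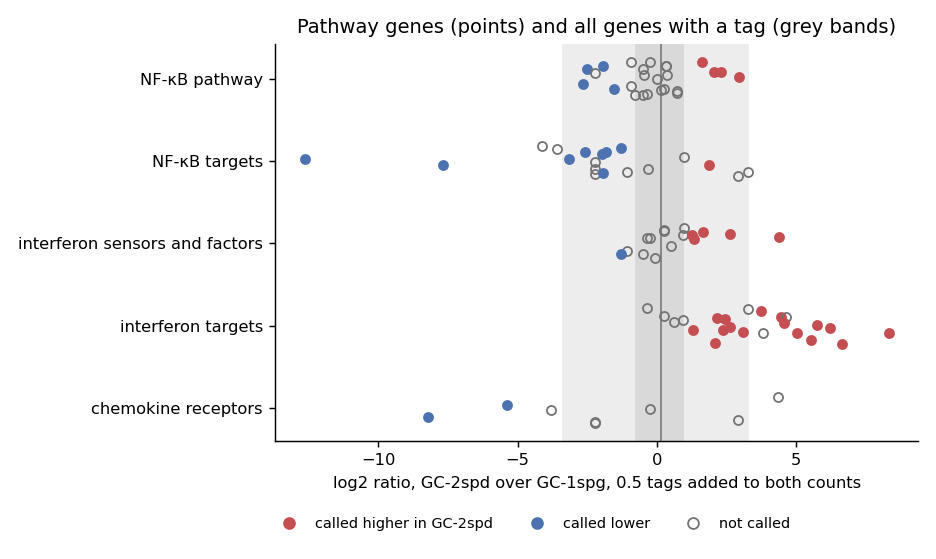
Log2 ratio, GC-2spd over GC-1spg, with 0.5 tags added to both counts, of the listed genes of 5 lists. Filled red and blue points are called higher and lower, open points are not called, vertical scatter is arbitrary, and the grey bands span the 5th to 95th and the 25th to 75th percentile of all genes with a tag, with their median as a line at 0.13. Interferon targets lie mostly to the right, with 16 called higher, NF-κB targets mostly to the left, with 8 called lower, and pathway genes on both sides.

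Genes that act on chemokine proteins or mRNAs were listed in full, 16 of 16, with 3 called higher and 3 lower, 18.8% each way beside 11.7% and 7.84% of all genes. Among proteases that cut or shed chemokines, *Mmp2*, which cleaves Cxcl12 and Ccl7, had 454 and 1586 copies, and its activator *Mmp14* had 41 and 363, both called higher. *Adam10*, which sheds Cxcl16 and Cx3cl1, had 385 and 551, and *Adam17*, which sheds Cx3cl1, had 103 and 124, neither called. *Dpp4*, which trims Cxcl12, Cxcl10 and Ccl5, had 2 and 0.

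The heparan sulfate carriers *Sdc1*, with 912 and 154 copies, and *Sdc4*, with 802 and 293, which can hold chemokines at the cell surface, were called lower. *Ext1* (412 and 381), *Ext2* (299 and 268) and *Ndst1* (350 and 276), which build and sulfate the chains, were not called.

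Many inflammatory mRNAs carry ATTTA in the 3′ UTR, the core of AU-rich elements through which RNA-binding proteins speed decay. The longest 3′ UTR held 7 copies of ATTTA in *Cxcl1*, 11 in *Cxcl2*, 5 in *Cxcl5*, 3 in *Cxcl10*, 4 in the long 3′ UTR of *Cxcl12*, 2 each in *Ccl7* and *Cxcl16*, 1 each in *Ccl2* and *Cx3cl1*, and none in *Ccl5*. At least 1 is found in 65.2% of 21039 genes and at least 3 in 35.6%. Of the proteins that bind such elements or nearby stem-loops, *Zfp36l2* (229 and 519 copies) was called higher and *Zc3h12a* (41 and 11), an RNase that NF-κB induces, was called lower. *Zfp36*, *Zfp36l1*, *Elavl1* and *Hnrnpd* were not called, with 41 and 42, 86 and 41, 1262 and 874, and 802 and 1350 copies. RNA decay was not measured.

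Markers of the labelled and of other cell types were checked in the same libraries. Of 12 germ cell markers, among them *Ddx4*, *Dazl*, *Kit*, *Stra8*, *Sycp3*, *Dmc1* and *Zbtb16*, 11 were not listed in either library, and only *Id4* was, with 38 and 7 copies. The germ cell origin in the labels is therefore not visible in these markers. Of 10 leukocyte markers 9 were not listed, among them *Ptprc*, *Cd68*, *Adgre1*, *Csf1r*, *Itgam*, *Lyz2*, *Cd3e* and *Tyrobp*. The leukocyte marker *Cd14* had 4 and 3 copies. Which cells the *Ccl5* and *Cxcl10* copies came from was not tested. Of 5 endothelial markers only *Kdr* was listed, with 2 and 4 copies.

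Fibroblast markers were plentiful, with 7 of 9 listed (*Thy1* and *Lum* were not) and 12899 and 6509 copies in all. They differed in both directions, *Col1a1* with 10465 and 2425 copies and *Dcn* with 710 and 2 called lower, and *Vim* with 984 and 2897, *Col3a1* with 50 and 120 and *Pdgfrb* with 0 and 84 called higher. *Col1a2* (605 and 907) and *Pdgfra* (85 and 74) were not called. All 6 Sertoli cell markers were listed, with 1589 and 460 copies in all. *Wt1* (620 and 0) and *Clu* (902 and 262) were called lower, *Gata4* (29 and 138) higher, and *Sox9* (29 and 46), *Inha* (4 and 14) and *Amh* (5 and 0) were not called. The part that different cells of origin have in the chemokine values was not tested, and with 1 library per line it cannot be told apart from the line itself.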

How the data were processed

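DGE tags were measured in 1 library each of GC-1spg and GC-2spd, grouped by their labels. The authors removed adaptor, low quality and single copy tags and deposited the copy number of each tag as a raw count, and the same value as TPM, tags per 1000000 clean tags. The matching program is not given in sources used here, and the UniGene matches were not used here. Tags were matched to all CATG+17 tags of GENCODE release M21 transcripts (GRCm38) with at most 1 mismatch, exact matches first. Sense tags of 1 gene only were summed per gene and divided by all 5072149 or 4726808 clean tags. The unambiguous sense tags were 54.7% and 57.9% of these totals.

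Genes were called by the two-sided Audic-Claverie test with Benjamini-Hochberg adjustment over 14450 genes, with an FDR up to 0.001 and a log2 ratio of 1 or more in size, where 0 was replaced by 0.01 TPM. DESeq2 and the quasi-likelihood test of edgeR need replicates and could not be fitted. Ratio intervals are exact conditional binomial (Clopper-Pearson) at 95%. For a gene missing from 1 library, fold bounds used the one-sided 95% Poisson limit, with 1 unlisted copy allowed for each distinct tag in the other library, since tags with 1 copy had been removed. Calling was tested on simulated data of 14266 genes with counting noise only. Of 200 genes changed 4-fold, 93.5% were recovered, with 100% of the 155 with at least 100 tags, and 0 unchanged genes were called. The changed genes were drawn only from genes above a minimum count, so recovery of genes with few copies was not tested. The simulated noise was the kind that the test assumes, so the simulation says nothing about variation between cultures.

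The chemokines, their grouping by regulator and all gene lists were chosen with earlier results of these data known. Named genes are all 10 chemokines, every other listed chemokine, and in each list the called genes, up to 6 per direction with the most tags, and up to 4 uncalled genes with the most tags. Genes named beyond this rule (in the NF-κB and interferon lists the less copied uncalled or unlisted genes, and the unlisted receptors) were chosen after their values were seen. Markers were named by whether they were listed. Some genes that the rule names are left out of the text. Alternatives were exact matching, tags shared with other genes counted, only the site closest to the 3′ end, the longest transcript, sense and antisense tags together, sense matches preferred, the most copied tag only, 0.5 tags added, TMM scaling, scaling to unambiguous sense tags, a minimum of 10 tags, and the exact test of edgeR at a BCV set to 0.2 or 0.4. Python 3.11.15, numpy 2.4.6, scipy 1.17.1, matplotlib 3.10.9 and R 4.3.3 with edgeR 4.0.16 were used.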

Additional observations from a re-analysis of the deposited data

Results flagged for a closer look

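Antisense tags, which the comparisons above do not use, were listed for 7 of the 10 chemokines. In GC-1spg *Cxcl1* had 331 antisense copies (29.8% of its sense copies) and in GC-2spd 9 (28.1%). *Cxcl5* had 168 in GC-1spg (25.5%) and none listed in GC-2spd, *Ccl2* had 154 and 24 (8.35% and 6.02%) and *Ccl7* had 16 and 17 (4.97% and 5.78%). *Cxcl12* had 725 in GC-2spd, 42.7% of its sense copies, against 2 in GC-1spg, and *Cxcl16* had 34 in GC-1spg (20.99%) against 2. *Cxcl10* had 3 in both libraries, and *Ccl5*, *Cx3cl1* and *Cxcl2* had none. Among all genes with at least 50 sense copies, 92.1% of 6855 genes in GC-1spg and 89.4% of 6995 in GC-2spd had antisense tags, with a median of 8.20% and 6.58% of the sense copies and a 90th percentile of 32.4% and 29.3%. The share of *Cxcl12* in GC-2spd lay above that percentile. There was no control without antisense transcription, and where the antisense tags came from was not tested.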

How the results depend on the processing

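Of 90 chemokine ratios under 10 alternative settings, 87 stayed inside the interval of counting error and 0 were reversed. Many of them could not leave it, because the setting left the counts of the gene as they were. This holds most for *Ccl5* and *Cx3cl1*, which have 1 listed tag each. The 2 scalings only shift every ratio alike, so the number inside says little about robustness. The ratio of *Ccl2* was −2.28 with TMM scaling, which shifts every log2 ratio by −0.17, and that of *Cxcl10* was 10.9 with only the site closest to the 3′ end or the most copied tag only, where its GC-1spg count becomes 0 and 0.01 TPM is put in its place. Of 112 counts of called genes under 8 settings, 88 were within 1.5 times of the reported count. With an assumed BCV of 0.2, calls over all genes were 511 higher and 489 lower in place of 1684 and 1133, and 0 other chemokines were called higher and 1 lower, 3 NF-κB genes higher, 13 interferon genes higher and 0 lower, and 1 handling gene lower. With a BCV of 0.4 they were 108 higher and 136 lower over all genes, 2 of the 10 chemokines lower, 0 other chemokines in either direction, 1 receptor lower, 0 NF-κB genes higher and 2 lower, 8 interferon genes higher and 0 lower, and 0 handling genes in either direction. Exact matching left 1 receptor called lower, since *Cxcr4* had only a tag with 1 mismatch. With only the site closest to the 3′ end, 0 other chemokines were called higher and 1 lower, and with TMM scaling 0 were called higher. TMM scaling also gave 1292 higher and 1443 lower calls over all genes. The fall in counts with the BCV follows from the wider spread assumed. No paired analysis was possible because there is 1 library per line and the labels give no replicate numbers, and for the same reason no library could be left out. Depth limits *Cx3cl1*, *Cxcl10* in GC-1spg and *Cxcl5* in GC-2spd most, with 7 copies or fewer.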
